A study of Mus musculus with 7 samples.

Results

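Potassium channels set the resting potential of an electrically active cell and end its action potentials. The genes described here are the pore-forming and auxiliary potassium channel genes of the mouse, together with the sulfonylurea receptors, which pair with inward rectifiers to make the ATP-sensitive (KATP) channel. Members were the genes of the deposited count table whose symbol is Kcn followed by 1 to 3 lowercase letters and then digits only, plus Abcc8 and Abcc9. This rule found 94 of the 55536 genes in the table, and 67 of them had at least 10 counts in 3 or more libraries. Only these 67 are called reported members below. Of the 27 others, 25 had at most 14 counts in every library, and Kcne1, Kcne2 and Kcnv2 had 0 in all 7, under a floor of 3 counts per library.

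The libraries came from pancreatic alpha cells, the glucagon-secreting cells of the islet, sorted from mouse islets by the red fluorescence of tdTomato. The 4 control samples had the genotype Nkx2.2+/+;Gcg-iCre;Rosa26:tdTomato and the 3 knockout (KO) samples had Nkx2.2fl/fl;Gcg-iCre;Rosa26:tdTomato. All 7 therefore carried a Cre recombinase driven by the glucagon gene and the reporter that it switches on, and they differed in the homeodomain transcription factor gene Nkx2-2. The mice were C57B1/6J, as the design text spells it, and that text writes the reporter locus as Rosa25. Their age was not given in the sources used here, nor whether each sample came from a separate animal, so the p-values measure the spread between these samples, which may be technical.

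In islet cells the KATP channel, built from Kir6.2 (Kcnj11) and SUR1 (Abcc8), closes when glucose metabolism raises ATP, which depolarises the membrane. Other potassium channels act beside it: tandem-pore leak channels hold the resting potential, G-protein-gated inward rectifiers (GIRK) open under inhibitory receptors such as those for somatostatin, and voltage-gated and calcium-activated channels repolarise the cell after each action potential. Auxiliary subunits bind the pore-forming proteins and change their traffic and gating.

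Total counts ran from 45483504 to 72456557 per library, so abundant members were limited by the number of libraries and weak ones also by depth. One KO library carries a number that no KO label has and is called the unnumbered KO library. Nkx2-2 itself had 8596 to 12297 normalized counts in controls and 7534 to 7758 in KO libraries, with every KO library below every control (log2 fold change -0.45, SE 0.13, DESeq2 adjusted p 0.0244, edgeR adjusted p 0.152). Control 4 was the deepest library and stood apart in the number of genes with a count, 31024 against 23150 to 25873 in the other 6. Of the 67 reported members it was the highest control for 21, the lowest for 19 and between the other controls for 27. These counts were not compared with those of the other controls. Alpha cell markers summed to 6417120 to 8411910 normalized counts in controls and 2925130 to 4240500 in KO libraries, and 6 of 8 fell in DESeq2. Gamma cell markers summed to 308593 to 579488 and 888943 to 1135290, with 2 of 3 higher. The epsilon cell marker Ghrl had 26.1 to 1307 and 2323 to 4673, and it did not pass. Beta cell markers summed to 332453 to 681507 and 522962 to 962311, with 1 of 7 higher. Delta cell markers summed to 196263 to 398978 and 355301 to 632402, with 1 of 4 higher. Both sums overlapped between the groups. The calls were Iapp (log2 fold change 0.93) and Rbp4 (1.55), and all other listed beta and delta cell markers also had positive values. For Iapp, Slc2a2 and Rbp4 the groups did not overlap. None of the markers of these 5 cell types was at 0 in any library. Outside the islet endocrine cells, duct markers summed to 8350 to 12381 in controls and 11901 to 12455 in KO libraries (1 of 5 higher). Most of the duct sum was Krt7 (mean 8836 in controls and 10088 in KO libraries), which overlapped and was not called. The call was Spp1 (log2 fold change 0.65). Sox9 (1.69) and Cftr (1.83) did not pass, but their groups did not overlap. Krt19 overlapped (0.52). Leukocyte markers summed to 860 to 1401 and 592 to 745 (1 of 5 lower, 3 of 5 at 0 in some library). Most of the leukocyte sum was C1qa, the gene that fell (mean 976 in controls and 553 in KO libraries). The weaker leukocyte markers Ptprc, Cd68, Lyz2 and Cd52 had positive log2 fold changes without a call. Acinar (168 to 11078 and 890 to 5584), endothelial (163 to 224 and 111 to 713), mesenchymal (482 to 1817 and 828 to 1659) and Schwann cell markers (600 to 927 and 651 to 786) had no call. Their part in the potassium channel results was not tested.

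The KATP subunits of islet cells were abundant in both groups and did not pass the test. Abcc8 (ENSMUSG00000040136, chromosome 7, 46104523 to 46180033, minus strand on GRCm38) had 69217, 70186, 71285 and 93871 normalized counts in controls 1 to 4, against 69003, 64640 and 82476 in the KO group (number 1, number 2 and the unnumbered one, an order kept throughout). Normalized counts are raw counts over the library's size factor from DESeq2. Control 4 was the highest of all 7 libraries and the other 3 controls lay within the KO range. The log2 fold change, KO over control, was -0.08 with a 95% interval of -0.36 to 0.20 (SE 0.14, DESeq2 adjusted p 0.998, edgeR adjusted p 0.961). Without control 4 it was 0.04.

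Kcnj11 (ENSMUSG00000096146, chromosome 7, 46093953 to 46100764, minus strand), the neighbouring pore subunit gene, had 5868, 6940, 7173 and 5951 normalized counts in controls and 5850, 7194 and 5398 in KO libraries. All 4 controls lay within the range of the KO libraries. The log2 fold change was -0.08 with a 95% interval of -0.35 to 0.19 (adjusted p 0.998 in DESeq2 and 0.945 in edgeR). A missed threshold does not show that the levels were equal, and the interval gives the range of changes left. Per kilobase (kb) of merged exon, the level of Abcc8 was 4.52 to 7.17 times that of Kcnj11 in controls and 4.08 to 6.94 times in KO libraries.

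The second pair of KATP genes, Kcnj8 (Kir6.1) and Abcc9 (SUR2), is known from mural cells of blood vessels and from muscle. Kcnj8 had at most 6 counts in any library and was not a reported member. Abcc9 had 14, 32, 26 and 12 counts in controls and 0, 30 and 39 in KO libraries, with a log2 fold change of -0.26 (SE 1.11). No difference was detectable at this depth. The 5 mural cell markers together summed to 113 to 321 normalized counts in controls and 174 to 477 in KO libraries.

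To compare genes with each other, levels were set per kb of merged exon. In controls the 5 highest reported members held 70.9% of the summed level of all 67, and the 10 highest held 86.2%. Abcc8 came first with 9412 ± 1465 (SD, n = 4) normalized counts per kb. Kcnk16 (the tandem-pore channel TALK-1, described in islets) followed with 6428 ± 869, then Kcnh6 (an ERG-type voltage-gated channel) with 2626 ± 773 and Kcnj11 with 1763 ± 182. Next came Kcnk3 (TASK-1, an acid-sensitive leak channel) with 1386 ± 275 and Kcnh2 (ERG1) with 1360.1 ± 142, which did not differ beyond their spread. Kcnk1 (TWIK-1) had 1046 ± 221 and Kcnmb2 (an inactivating subunit of the BK channel) 809 ± 213, which overlapped in their spread. At the other end, 17 reported members were under 10 normalized counts per kb.

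**Figure D1:**
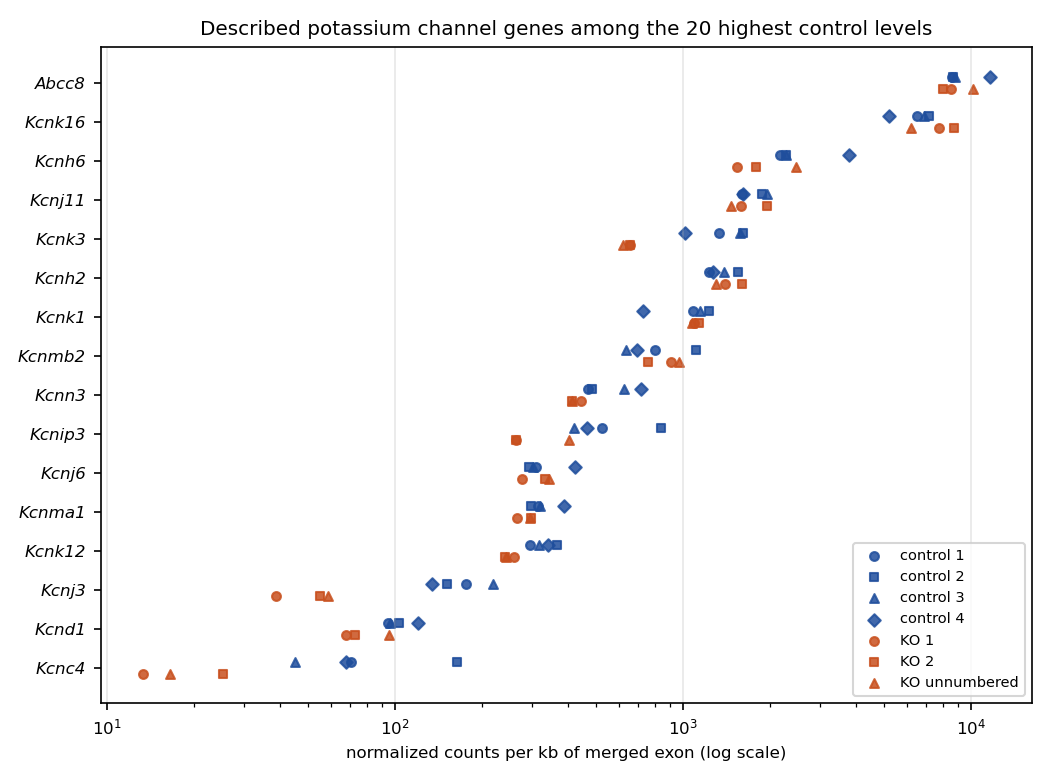
Normalized counts per kb of merged exon (horizontal log axis) in each library for the genes described in the text that are among the 20 members of highest mean control level, controls in blue and KO libraries in orange. Abcc8 and Kcnk16 lie above all others. Kcnk3, Kcnn3, Kcnip3, Kcnma1 and Kcnj3 are among the genes whose KO libraries lie wholly below the controls.

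The design compares alpha cells with and without Nkx2-2 deletion, here for potassium channel genes. In DESeq2 9 members passed an adjusted p of 0.05, 3 higher and 6 lower in KO, among 66 that received an adjusted p. Over all genes tested 3.90% were called, 1.96% higher and 1.94% lower, against 13.6% of the members. The edgeR quasi-likelihood test called 3 of 66 members, Kcnip1 higher and Kcnj3 and Kcnk3 lower, which is 4.55%, where it called 1.05% of all genes, 0.404% higher and 0.647% lower. A log2 fold change of at least 1 in either direction was seen in 15 of the 67 reported members and in 8.98% of all genes with such counts. Of the 67 reported members 17 (25.4%) had KO and control libraries that did not overlap, against 11.3% of all genes with such counts. The median log2 fold change of the members was 0.08 and that of all such genes 0.01. Of the reported members 36 had a positive and 31 a negative log2 fold change. With scaling to library totals the median over all genes shifted by 0.10, which changed the split of member calls from 3 higher and 6 lower to 6 higher and 5 lower. In a bulk sample, fewer cells of a type and less RNA per cell cannot be told apart.

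**Figure D2:**
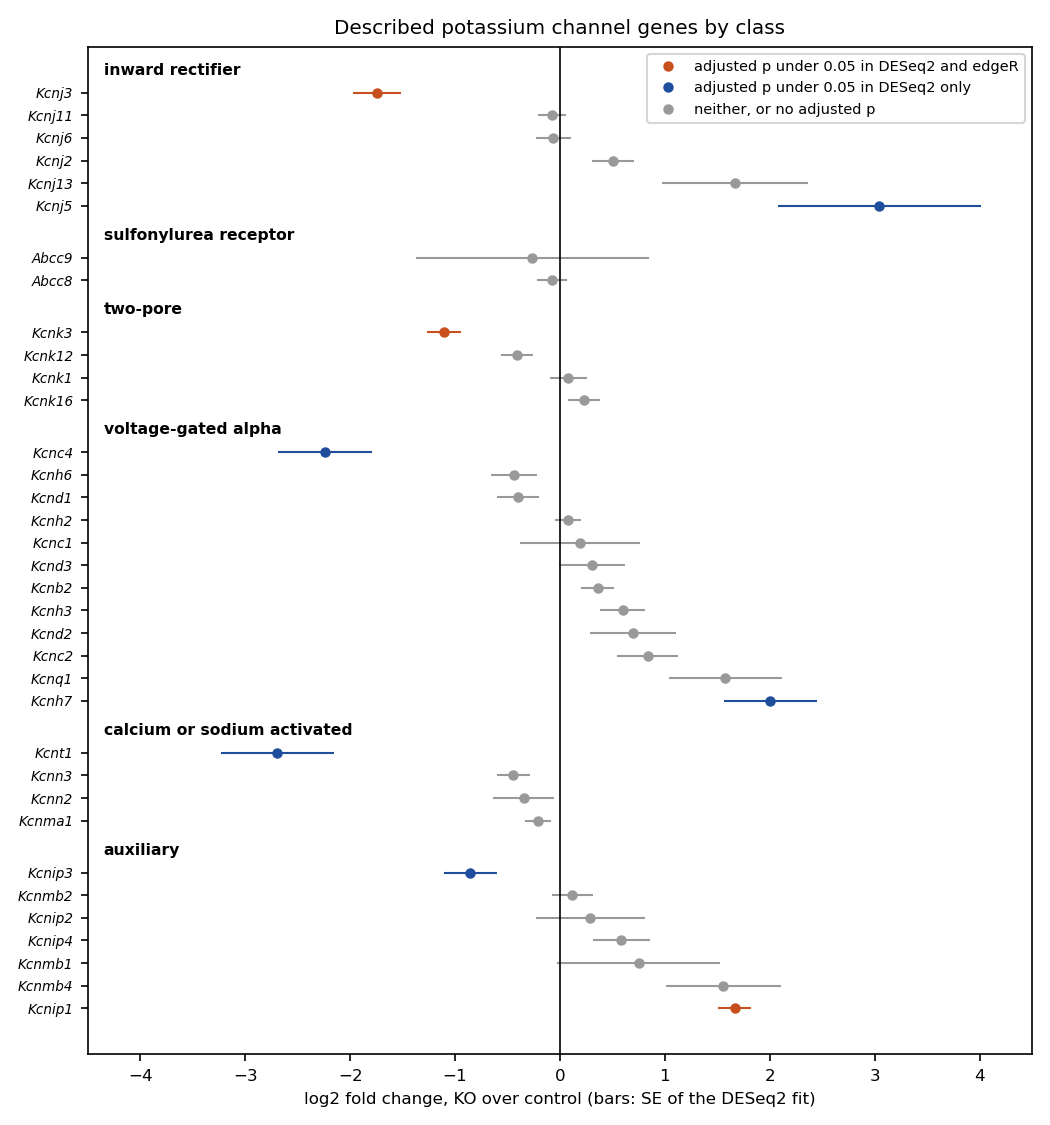
DESeq2 log2 fold change of KO over control (horizontal axis, bars are the SE) for the reported members described in the text, grouped by class. The 3 orange genes, Kcnj3, Kcnk3 and Kcnip1, passed in DESeq2 and edgeR, the 5 blue ones in DESeq2 only, and most of the rest lie near 0 or have wide bars.

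Among the inward rectifiers, 15 genes matched the rule, 10 were reported, and 1 rose and 1 fell in DESeq2. Both encode GIRK subunits. Kcnj3 (GIRK1; ENSMUSG00000026824, chromosome 2, 55435970 to 55598145, plus strand) had 917, 790, 1144 and 703 normalized counts in controls, against 201, 287 and 305 in KO libraries. The lowest control was above every KO library, by more than the SD of either group. The mean fell from 889 ± 192 (SD, n = 4) to 265 ± 55.4 (SD, n = 3), which is 29.8% of control (log2 fold change -1.75, SE 0.23, DESeq2 adjusted p 2.10e-11, edgeR adjusted p 0.0116). Of its exon length 31.1% lies under exons of Gm26794 on the opposite strand, which had 55 to 90 counts in controls and 24 to 46 in KO libraries. It was -1.84 without control 4.

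Kcnj6 (GIRK2), the GIRK subunit of the highest level here, had 2232 to 3225 normalized counts in controls and 2103 to 2611 in KO libraries. Its log2 fold change was -0.06 (SE 0.16, adjusted p 1.00), and its sign turned under library-total scaling. Kcnj5 (GIRK4) was near the floor, with 8, 4, 0 and 4 counts in controls and 36, 46 and 28 in KO libraries. The groups did not overlap, and the log2 fold change was 3.04 (SE 0.97, DESeq2 adjusted p 0.0440, edgeR adjusted p 0.190). With each library left out in turn, it passed 2 of 7 times, and 3 times it had no adjusted p. With counts halved the DESeq2 adjusted p of Kcnj5 was 0.0632. It had none when only genes with at least 10 counts in 3 libraries were fitted. With the other scalings it passed in DESeq2. Kcnj9 (GIRK3) had at most 26 counts in any library and was not reported. Per kb, Kcnj3 went from 170 ± 36.7 in controls to 50.7 ± 10.6 in KO libraries, next to 331 ± 61.4 and 317 ± 36.1 for Kcnj6 and 0.890 ± 0.812 and 7.36 ± 2.86 for Kcnj5.

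The other 8 inward rectifiers did not pass. Kcnj2 (Kir2.1), a strong rectifier that holds cells at rest, had 207 to 267 normalized counts in controls and 310 to 356 in KO libraries. These groups did not overlap, but its adjusted p was 0.186 (log2 fold change 0.51). Kcnj13 (Kir7.1) had 11.3, 30.7, 10.5 and 67.2 in controls and 113, 122 and 53.3 in KO libraries, so control 4 exceeded the unnumbered KO library. Its log2 fold change was 1.67 (adjusted p 0.228), and without control 4 it was 2.45 (adjusted p 0.000833 in DESeq2 and 0.0879 in edgeR). The edgeR fit without control 4, used here and below, was chosen after seeing the data. Kcnj13 lies inside Gigyf2 on the opposite strand, with 49.1% of its exon length under exons of that gene, so its counts are uncertain.

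Of the tandem-pore channels, which carry leak currents, 14 matched the rule and 9 were reported. One fell and none rose. Kcnk3 (ENSMUSG00000049265, chromosome 5, 30588170 to 30625271, plus strand) had 5319, 6422, 6263 and 4039 normalized counts in controls and 2602, 2607 and 2461 in KO libraries. The 3 KO libraries were close to one another and all below the lowest control, which was control 4. The mean fell from 5511 ± 1095 (SD, n = 4) to 2557 ± 82.8 (SD, n = 3), or 46.4% of control (log2 fold change -1.11, SE 0.16, DESeq2 adjusted p 4.71e-09, edgeR adjusted p 0.0159). It was -1.23 without control 4. Exons of Gm9899 on the opposite strand cover 5.80% of the exon length of Kcnk3. Gm9899 had 193 to 356 counts in controls and 68 to 171 in KO libraries. Its part in the Kcnk3 counts was not tested.

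Kcnk16 had 15432, 17025, 16321 and 12339 normalized counts in controls and 18346, 20733 and 14728 in KO libraries. The unnumbered KO library lay within the control range and the other 2 above it. The log2 fold change was 0.23 with a 95% interval of -0.07 to 0.53 (adjusted p 0.707 in DESeq2 and 0.722 in edgeR). In controls Kcnk16 was 4.64 times Kcnk3 per kb, and in KO libraries 11.7 times. Kcnk1 had 1625 to 2750 normalized counts in controls and 2407 to 2548 in KO libraries (log2 fold change 0.08, adjusted p 1.00). Kcnk12 (THIK-2) had 582 to 718 in controls and 476 to 510 in KO libraries, without overlap, and an adjusted p of 0.126 (log2 fold change -0.41). Kcnk9 (TASK-3) had at most 10 counts in any library and was not reported.

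The voltage-gated class was the largest, with 40 genes matched, 29 reported, 1 higher and 2 lower in DESeq2, and none called in edgeR. Kcnh7 (ERG3; ENSMUSG00000059742, chromosome 2, 62693414 to 63184287, minus strand) had 72.6, 191, 68.0 and 275 normalized counts in controls and 479, 706 and 647 in KO libraries. Controls varied widely among themselves, yet the highest, control 4, was below the lowest KO library. The mean rose from 152 ± 99.9 (SD, n = 4) to 611 ± 118 (SD, n = 3) (log2 fold change 2.01, SE 0.44, DESeq2 adjusted p 0.000405, edgeR adjusted p 0.0973). Without control 4 the DESeq2 log2 fold change was 2.46. The edgeR fit without control 4, chosen after seeing the data, gave Kcnh7 an adjusted p of 0.0234. Exons of Gca on the opposite strand cover 4.60% of its exon length.

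Kcnh7 remained the weakest of the 3 ERG genes. Per kb it went from 9.95 ± 6.56 to 40.1 ± 7.75, next to 2626 ± 773 and 1933 ± 485 for Kcnh6 and 1360.1 ± 142 and 1434 ± 154 for Kcnh2. Kcnh6 had 7691, 8078, 8086 and 13426 normalized counts in controls and 5451, 6350 and 8780 in KO libraries. Its log2 fold change was -0.44 (SE 0.22, adjusted p 0.409), and -0.21 without control 4, the highest library. It passed in the DESeq2 fit without both deepest libraries, chosen after seeing the data (adjusted p 0.000890). Kcnh2 overlapped between the groups (log2 fold change 0.08, SE 0.12, adjusted p 0.995).

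Kcnc4 (Kv3.4; ENSMUSG00000027895, chromosome 3, 107438303 to 107459552, minus strand), an inactivating channel of fast-firing cells, had 259, 603, 165 and 248 normalized counts in controls and 48.9, 93.0 and 60.7 in KO libraries. Control 2 was far above the other controls, and every control was above every KO library. The mean fell from 318 ± 194 (SD, n = 4) to 67.5 ± 22.8 (SD, n = 3) (log2 fold change -2.24, SE 0.45, DESeq2 adjusted p 5.57e-05, edgeR adjusted p 0.0737). Without control 2 the log2 fold change was -1.73. Its relative Kcnc1 had 26.1 to 70.3 normalized counts in controls and 26.9 to 84.1 in KO libraries, without a call (0.19, adjusted p 1.00).

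Kcnq1 (Kv7.1), which carries a slow delayed rectifier current, was weak, with 13.6 to 24.6 normalized counts in controls and 43.7 to 74.3 in KO libraries. These did not overlap, but the log2 fold change of 1.58 (SE 0.54) had an adjusted p of 0.0770. It passed in DESeq2 when scaled to library totals (adjusted p 0.0378) and without both deepest libraries (0.0359), a fit chosen after seeing the data. Its gene hosts the antisense RNA Kcnq1ot1, whose exons cover 3.00% of its exon length.

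The delayed rectifier Kcnb2 had 913 to 1255 normalized counts in controls and 1247 to 1368 in KO libraries, and a log2 fold change of 0.36 (adjusted p 0.263). Kcnb2 passed without control 4, its highest control (log2 fold change 0.48, adjusted p 0.0135 in DESeq2 and 0.0634 in edgeR). Kcnc2 (0.83, adjusted p 0.0949) and Kcnh3 (0.60, adjusted p 0.0968) had positive values short of the threshold. Kcnc2 passed 3 of 7 times with each library left out in turn. Of the 29 reported genes in the class 18 had a positive and 11 a negative log2 fold change.

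Of the 8 genes for channels activated by calcium or sodium, 7 were reported. The single call was Kcnt1 (Slack, sodium-activated; ENSMUSG00000058740, chromosome 2, 25863734 to 25918273, plus strand), which had 165, 99.1, 135 and 357 normalized counts in controls and 19.6, 18.6 and 48.9 in KO libraries. Control 4 stood above the other controls and the unnumbered KO library above the other KO libraries, and the groups did not overlap. The mean fell from 189 ± 115 (SD, n = 4) to 29.0 ± 17.2 (SD, n = 3) (log2 fold change -2.69, SE 0.54, DESeq2 adjusted p 6.30e-05, edgeR adjusted p 0.0762). It was -2.17 on the log2 scale without control 4.

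The BK channel gene Kcnma1 had 5041 to 6570 normalized counts in controls and 4494 to 5030 in KO libraries, without overlap, and did not pass (log2 fold change -0.21, SE 0.12, adjusted p 0.605). Kcnn3 (SK3, small-conductance) had 4908 to 7440 in controls and 4292 to 4616 in KO libraries, again without overlap (log2 fold change -0.44, SE 0.16, adjusted p 0.106). Kcnn3 passed without control 1 (0.0370) and without control 2 (0.0374). Kcnn2 (SK2) overlapped between the groups (log2 fold change -0.35, SE 0.29, adjusted p 0.855). Over the class 6 of 7 log2 fold changes were negative, with a median of -0.30.

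**Figure D3:**
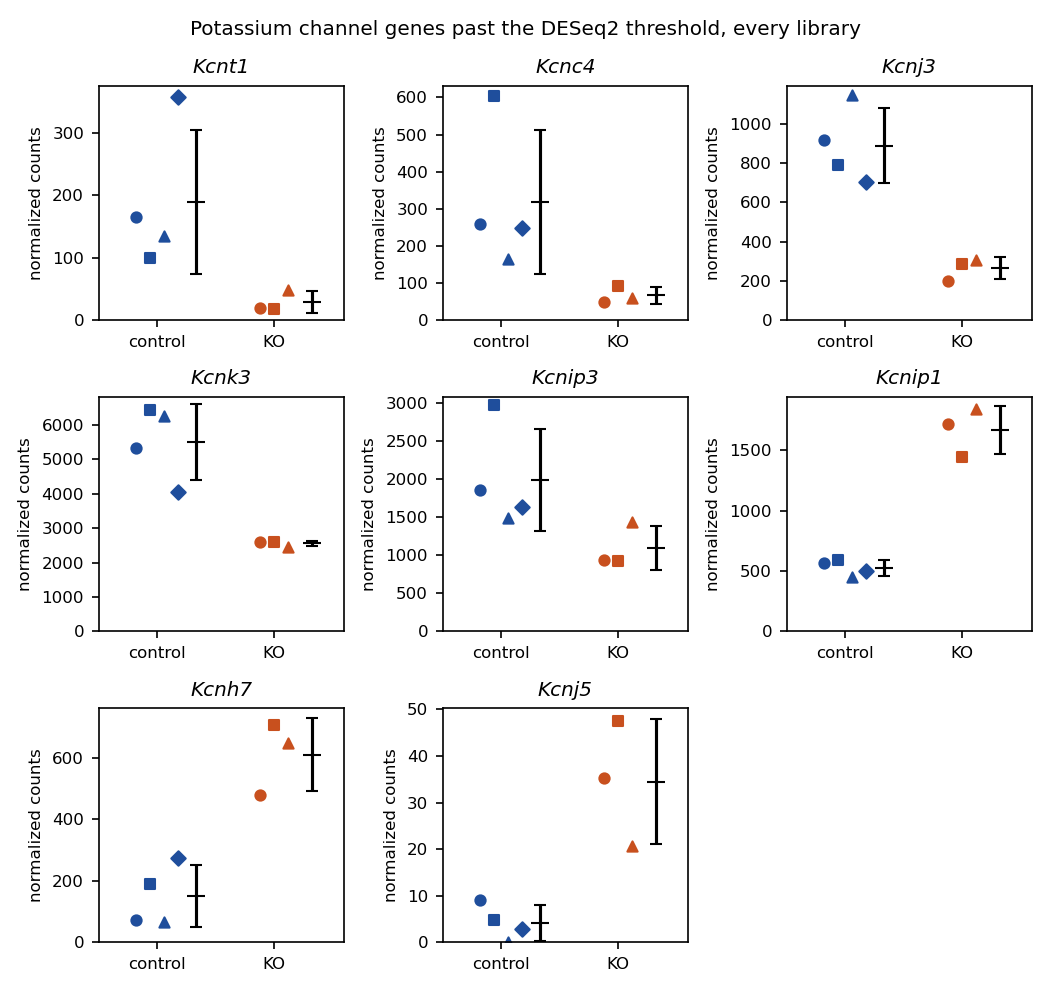
Normalized counts (vertical axes, from 0) in every library for 8 of the 9 members past the DESeq2 threshold, controls in blue and KO libraries in orange, with mean and SD as black bars. In all 8 genes shown the groups do not overlap.

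Auxiliary subunits gave the gene with the smallest adjusted p among the members. Kcnip1 (KChIP1; ENSMUSG00000053519, chromosome 11, 33629339 to 33993152, minus strand) encodes a calcium-binding protein that associates with Kv4 channels and alters their traffic and inactivation. It had 567, 589, 447 and 501 normalized counts in controls and 1718, 1446 and 1840 in KO libraries. Every KO library was above every control, and the gap was wider than the range of either group. The mean rose from 526 ± 64.5 (SD, n = 4) to 1668 ± 202 (SD, n = 3), 3.17 times control (log2 fold change 1.67, SE 0.16, DESeq2 adjusted p 7.30e-22, edgeR adjusted p 0.00240). No exon of another gene overlaps its exons.

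Kcnip3 (KChIP3, also known as calsenilin and as the transcriptional repressor DREAM; ENSMUSG00000079056, chromosome 2, 127456498 to 127522094, minus strand) had 1850, 2969, 1483 and 1639 normalized counts in controls and 934, 931 and 1431 in KO libraries. The unnumbered KO library came close to the lowest control, control 3. The log2 fold change was -0.85 (SE 0.25, DESeq2 adjusted p 0.0236, edgeR adjusted p 0.210). With each library left out in turn it passed 2 of 7 times, with a log2 fold change of -0.59 without control 2 and an adjusted p of up to 0.235, without KO 1. In controls Kcnip3 had 559.8 ± 189.7 normalized counts per kb and Kcnip1 84.8 ± 10.4. In KO libraries the values were 309.7 ± 81.1 and 269 ± 32.6.

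The pore-forming Kv4 genes did not pass. The log2 fold changes were -0.40 for Kcnd1 (adjusted p 0.397), 0.70 for Kcnd2 (0.604) and 0.30 for Kcnd3 (0.941), each with overlapping groups. Kcnd3 had 155 to 353 normalized counts in controls and 256 to 403 in KO libraries. The other KChIP genes Kcnip2 (0.29, adjusted p 0.998) and Kcnip4 (0.59, 0.331) overlapped too. A further Kv4 partner outside the symbol rule, Dpp10, was lower. It encodes a dipeptidyl-peptidase-like protein of the Kv4 complex and had 5082, 4510, 7511 and 5489 normalized counts in controls and 1804, 1116 and 1225 in KO libraries. That is a mean of 24.5% of control (log2 fold change -2.03, SE 0.21, DESeq2 adjusted p 4.97e-19, edgeR adjusted p 0.00955), and it passed 7 of 7 times with each library left out in turn. Its relative Dpp6 did not pass (0.19, adjusted p 0.968).

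**Figure D4:**
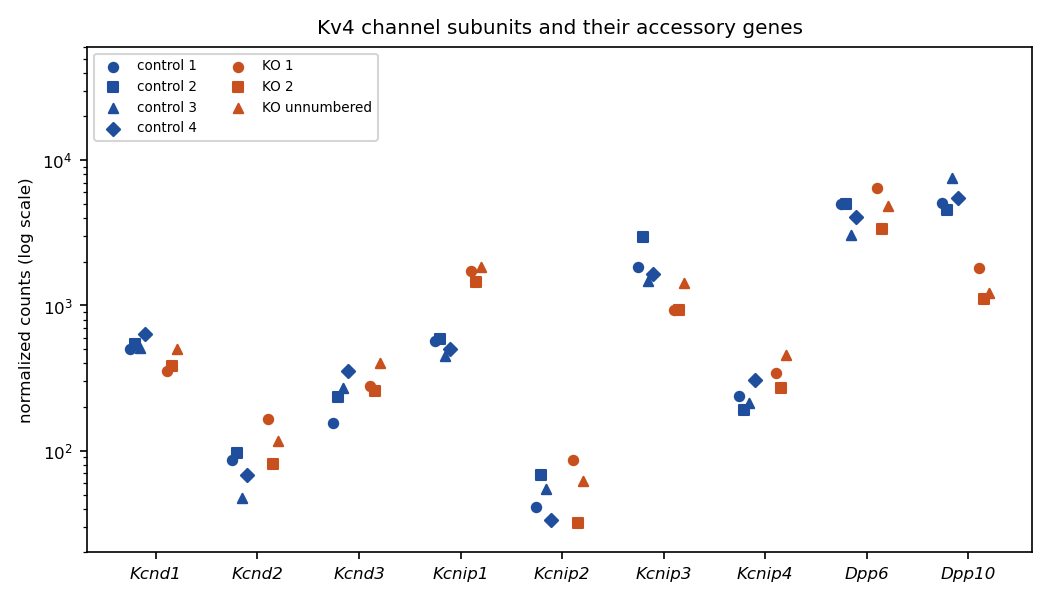
Normalized counts (vertical log axis) in every library for the Kv4 pore genes, the 4 KChIP genes and the dipeptidyl-peptidase-like partners, controls in blue and KO libraries in orange. Kcnip1 is higher and Kcnip3 and Dpp10 are lower in all KO libraries than in all controls, while the 3 Kcnd genes overlap.

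The BK subunit gene Kcnmb2 had 1977 to 3477 normalized counts in controls and 2363 to 3030 in KO libraries (log2 fold change 0.12, adjusted p 0.996). Kcnmb4, the neuronal BK subunit, had 22.4 to 146 in controls and 164 to 266 in KO libraries. These did not overlap, and the adjusted p was 0.0930 (log2 fold change 1.56). Exons of 2 antisense genes cover 31.5% of its exon length, and these had at most 4 and 47 counts in any library. Kcnmb1 had 128, 175, 99.4 and 717 in controls and 562, 490 and 362 in KO libraries. Control 4 was the highest of all 7, and the other controls were the lowest. Its log2 fold change was 0.75 (SE 0.78, adjusted p 0.941), and without control 4 it was 1.81 (SE 0.27, DESeq2 adjusted p 3.28e-09, edgeR adjusted p 0.0160). That edgeR fit was chosen after seeing the data. Kcnmb1 lies inside the Kcnip1 gene, on the opposite strand, with no exon overlap. Kcnip1 was higher in all KO libraries, but in control 4 it had 501 normalized counts, within the range of the other controls (447 to 589). Whether reads of its introns reach Kcnmb1 was not tested.

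A list of 36 other genes of potassium transport and channel accessory proteins was read from the same fit. Of 30 with an adjusted p, 1 rose and 1 fell in DESeq2, with a median log2 fold change of -0.03, and edgeR called 1, Dpp10. The gene that rose was Slc12a2, the sodium-potassium-chloride cotransporter NKCC1, with a control mean of 1394 ± 346 (SD, n = 4) and a KO mean of 2244 ± 133 normalized counts (SD, n = 3). Its log2 fold change was 0.69 (adjusted p 0.0163 in DESeq2 and 0.148 in edgeR). With each library left out in turn it passed 4 of 7 times.

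With each library left out in turn, 6 members passed DESeq2 every time: Kcnip1, Kcnj3, Kcnk3, Kcnh7, Kcnc4 and Kcnt1. The range of their log2 fold changes over these fits was 1.59 to 1.76 for Kcnip1, -1.86 to -1.59 for Kcnj3 and -1.23 to -1.03 for Kcnk3. It was wider for Kcnh7 (1.76 to 2.46), Kcnc4 (-2.54 to -1.73) and Kcnt1 (-3.31 to -2.17). Leaving out control 4 gave 13 member calls, with Kcnb2, Kcnj13, Kcnc2, Kcnmb4 and Kcnmb1 added and Kcnip3 lost.

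**Figure D5:**
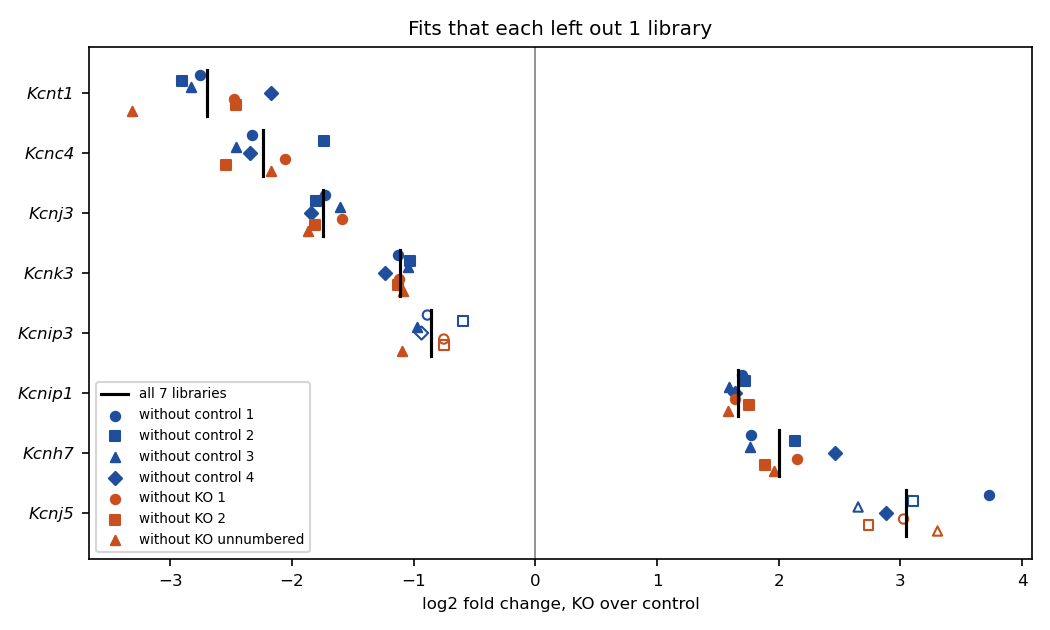
Log2 fold change of KO over control (horizontal axis) for 8 of the 9 members past the threshold, with all 7 libraries as a black line and with each library left out as a symbol. Filled symbols had an adjusted p under 0.05 in DESeq2, and the 6 genes with only filled symbols are Kcnt1, Kcnc4, Kcnj3, Kcnk3, Kcnip1 and Kcnh7.

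Upstream sequences are shown for those of these 6 genes that the RefSeq promoter table (GRCm38.p6) holds, since these are the members called whichever library was left out. The table matched 48 of the 67 reported members. Each line gives the 250 bases before the transcription start nearest to the annotated gene start, 5′ to 3′ on the gene's strand. The distance between these 2 starts was 0 bases for Kcnj3 and Kcnh7, 41 for Kcnip1 and 654 for Kcnc4. The Kcnc4 window lies within the annotated gene. Capitals mark matches on either strand to AAGTG, the core that NKX2-type homeodomain proteins bind, or to CACCC, a core of sites of Krüppel-like factors such as KLF4, which the series title names.
Kcnip1 (chr11:33993194-33993443, minus strand): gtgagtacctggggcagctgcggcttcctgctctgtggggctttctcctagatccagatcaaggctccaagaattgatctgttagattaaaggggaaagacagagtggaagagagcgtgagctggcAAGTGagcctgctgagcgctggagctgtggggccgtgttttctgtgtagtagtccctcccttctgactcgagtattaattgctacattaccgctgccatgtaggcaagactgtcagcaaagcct
Kcnj3 (chr2:55435720-55435969, plus strand): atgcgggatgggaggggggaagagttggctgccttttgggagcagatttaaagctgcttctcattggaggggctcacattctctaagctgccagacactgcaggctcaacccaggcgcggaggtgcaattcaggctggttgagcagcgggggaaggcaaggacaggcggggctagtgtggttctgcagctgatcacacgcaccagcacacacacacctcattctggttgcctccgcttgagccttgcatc
Kcnh7 (chr2:63184288-63184537, minus strand): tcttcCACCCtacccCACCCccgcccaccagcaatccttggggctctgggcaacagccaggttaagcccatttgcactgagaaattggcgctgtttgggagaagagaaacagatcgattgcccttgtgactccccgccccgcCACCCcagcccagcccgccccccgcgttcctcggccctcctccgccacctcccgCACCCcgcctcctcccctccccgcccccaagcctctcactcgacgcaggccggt
Kcnc4 (chr3:107458899-107459148, minus strand): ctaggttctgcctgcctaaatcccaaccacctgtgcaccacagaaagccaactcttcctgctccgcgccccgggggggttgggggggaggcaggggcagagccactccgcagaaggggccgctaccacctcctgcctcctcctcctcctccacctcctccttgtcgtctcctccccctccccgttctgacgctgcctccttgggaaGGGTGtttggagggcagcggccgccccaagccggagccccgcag
The window of Kcnip1 held 1 match to AAGTG and none to CACCC, that of Kcnj3 held neither, that of Kcnh7 held 4 matches to CACCC and that of Kcnc4 held 1. No match in these windows overlapped another. Over all 32851 windows of the same length in the table, 40.7% held AAGTG or its reverse complement and 52.0% held CACCC or its reverse complement. Among the 67 windows of the reported members, several genes having more than 1, the shares were 34.3% and 80.6%. A match describes the letters of a window and not a bound site, and these shares were not tested.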

How the data were processed

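Messenger and other RNA of sorted alpha cells was sequenced in 7 libraries, which the labels describe both as ribosome-depleted and as polyA RNA. The deposited table holds raw counts per gene, made by the authors with STAR and featureCounts on mm10 per the submitters' processing notes, and the strand setting of the counting was not given in the sources used here. All 55536 gene IDs matched GENCODE M21 (GRCm38) with the same symbol, which gave positions and merged exon lengths. Even numbers made up at least 84.4% of the counts from 1 to 10, so a fit on halved counts was among the alternatives. Intervals of a log2 fold change come from the DESeq2 SE, which holds the spread between libraries, and the floor of 3 counts covers counting error only.

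DESeq2 1.42.0 (Wald test, the tool the design text names, no covariate, Benjamini-Hochberg over all genes, threshold 0.05) was fitted on the whole table in R 4.3.3, with edgeR 4.0.16 (quasi-likelihood) beside it. Both were tested on simulated data. Named were the KATP subunits, every member called by either tool, the 10 highest per kb in controls, the 3 highest and 3 lowest log2 fold changes, a list of channels described in islets, and up to 3 examples a class. Kcnd1, Kcnd2, Kcnip2 and Kcnip4 were added after their values were seen, to complete the Kv4 group. Some genes within the counts given are not reported here by name. The members and lists were chosen with earlier results of these data known. Alternatives were other scalings and filters, halved counts, each library left out, and a replicate block. The replicate numbers 1 and 2 are shared by both groups, and whether they mark pairs was not given in the sources used here.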

Additional observations from a re-analysis of the deposited data

Results flagged for a closer look

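Among controls, control 4 stood apart from the other 3 for 3 of the 23 named and reported members that were checked. The class examples and the Kv4 genes added later were not among these 23. Control 4 was also far above the next control in some of those genes. It had 717 normalized counts against 175 for Kcnmb1, and 1255 against 966 for Kcnb2. For Abcc8 it had 93871 normalized counts, where the next control had 71285. For Kcnh6 it had 13426, where the next had 8086. For Kcnj6 it had 3225, where the next had 2352. The gap to the nearest control was 0.916, 0.931 and 0.879 of the range of the controls, above the critical value of Dixon's test for 4 samples. Chance flags about 1 in 20 groups, or 1.15 of 23.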

How the results depend on the processing

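DESeq2 called 9 members and edgeR 3. Leaving out 1 library at a time gave 6 (without KO 1) to 13 (without control 4) member calls, and the other scalings and filters 8 to 11. In fits chosen after seeing the data, edgeR without control 4 called 5 and DESeq2 without both deepest libraries 12. Of the other potassium genes DESeq2 called 2, edgeR 1 with or without control 4, and DESeq2 scaled to library totals 5, with 1 to 4 when 1 library was left out. With the replicate number as a block, for controls 1 and 2 and KO 1 and 2, 11 members and 2 other genes were called. The deviations of same-numbered libraries had correlations of 0.119 and 0.19. Differently numbered libraries were not compared in this way, so these values cannot tell whether the numbers mark pairs or batches.

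The 23 named and reported members had 368 alternative values. Of these 313 kept their direction and side of the threshold, 25 lost the call, 6 gained it and 24 turned sign, all in genes without a call. A missing adjusted p counted as no call, so the 25 include Kcnj5 values that had none. Class examples are outside the 23, so the calls that Kcnb2, Kcnj13, Kcnc2, Kcnmb4 and Kcnmb1 gained without control 4 are not in this tally. Log2 fold changes scaled to library totals were 0.020 for Kcnj11, 0.022 for Abcc8 and 0.031 for Kcnj6. Under the replicate block Kcnh6 gained a call (log2 fold change -0.42, adjusted p 0.00739 in DESeq2), and Abcc9 moved to -2.41 with no adjusted p. Values that turned sign under the block were 0.022 for Kcnj11, -0.052 for Kcnk1, -0.19 for Kcnmb2, -0.15 for Kcnc1 and 0.011 for Kcnj6. In edgeR without control 4 they were 0.045 for Abcc8, -0.055 for Kcnk1 and 0.085 for Kcnj6, and without both deepest libraries -0.048 for Kcnk1, -0.028 for Kcnmb2 and 0.015 for Kcnj6. Leaving out 1 library gave ranges of -0.21 to 0.0065 for Kcnj11, -0.19 to 0.038 for Abcc8, -0.73 to 0.32 for Abcc9, -0.013 to 0.14 for Kcnh2, -0.062 to 0.17 for Kcnk1, -0.26 to 0.51 for Kcnc1 and -0.12 to 0.078 for Kcnj6. The cause was not tested. Weak members such as Kcnj5 and Abcc9 are limited by depth.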
